A study of Mus musculus with 4 samples.

Results

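Mature B cells in the marrow of mice rebuilt from Idh1-R132H or Idh1-WT donor cells were looked for by their transcripts. A cell was taken as a member when it held at least 2 UMIs (unique molecular identifiers, each standing for 1 captured transcript) of Cd79a plus Cd79b, at least 1 UMI of Ms4a1 or H2-Aa, at most 1 UMI of Vpreb1, Igll1 and Vpreb3 together, and none of Cd3e or Siglech. After barcodes below 500 UMIs or 200 genes, or above 10% mitochondrial UMIs, had been dropped, 582 of the 16280 remaining cells were members: 160 in Idh1-WT 1, 148 in Idh1-WT 2, 144 in Idh1-R132H 1 and 130 in Idh1-R132H 2. The name "mature B-like" held for most of a set of 307 of them and went against the data for most of the other 275, as shown next. Cells rich in Jchain, described below, stood apart in both sets. These 9 genes chose the cells, so their levels are described here and not tested.

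Both groups, Idh1-WT and Idh1-R132H, had 2 libraries of 1 mouse each. EYFP was recombined, together with a heterozygous Idh1-R132H allele in the mutant group, by 5 days of tamoxifen, and lineage-negative EYFP+ marrow was sorted 2 weeks later and given to fully irradiated mice with no helper marrow. At 16 weeks, 4000 cells each of 3 gates (EYFP+DAPI-CD45.1+ total blood-forming cells, LSK and LK progenitors) were sorted from each mouse into 1 tube, so the libraries hold far more progenitors than whole marrow does. Cells were captured with the 10x 3′ v2 kit. The labels name neither the promoter of the recombinase nor the number of donors per recipient, and p-values measure only the spread between these 4 samples. The kit reads the 3′ end of a transcript and not the mutated base, so the level of Idh1 is no check of the genotype labels.

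A mature B cell carries an antibody on its surface as its antigen receptor. Cd79a and Cd79b are the chains that pass the receptor's signal into the cell, and Ms4a1 encodes CD20. B cells are made in the marrow through pro-B and pre-B stages that use Vpreb1, Vpreb3 and Igll1, leave as immature cells, and return to the marrow as recirculating cells that display antigen on MHC class II molecules. The antibody genes themselves, such as Ighm and Igkc, were not among the features analysed here.

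The 582 members fell into 2 sets with few cells between them when Cd79a plus Cd79b was expressed per 10000 UMIs of the cell. At 30 or more lay 276 cells, below 3 lay 232 cells, and only 12 lay from 5 to 10 and 13 from 10 to 20. A dividing line at 10, set after these values were seen, gave 307 Cd79-dense cells (78, 91, 78 and 60 in Idh1-WT 1, Idh1-WT 2, Idh1-R132H 1 and Idh1-R132H 2, an order kept for all values below) and 275 Cd79-sparse cells (82, 57, 66 and 70). The dense cells were small, with medians of 1713, 1723, 1645 and 1604 UMIs. Sparse cells were large, with medians of 18351, 19144, 15944 and 16881 UMIs, against 7228 to 8707 for all kept cells.

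**Figure D1:**
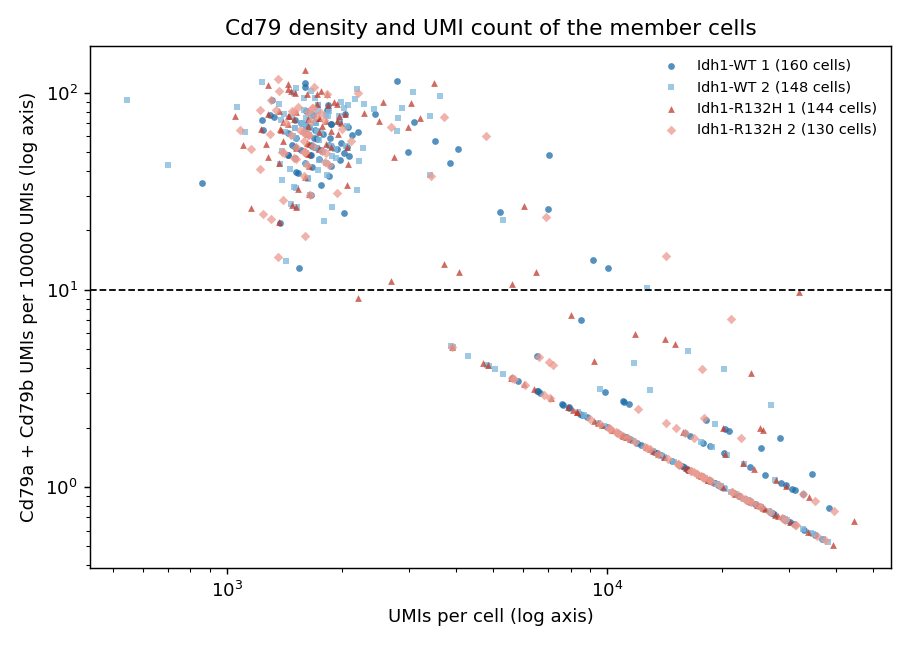
Each point is 1 of the 582 member cells, placed by its UMI count (x, log axis) and its Cd79a plus Cd79b UMIs per 10000 UMIs (y, log axis), with colour and shape for the library and a dashed line at 10. A compact cloud of 307 cells lies above the line, most with fewer than 5000 UMIs; the 275 cells below are larger, and many lie on the straight line that 2 UMIs of Cd79 trace across cell sizes.

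The markers that chose the cells are given as a description, since the rule and the line at 10 fix much of their pattern. Cd79a was seen in 77, 90, 77 and 59 dense cells, Cd79b in 77, 91, 75 and 57, and Ms4a1 in 65, 78, 65 and 46. In sparse cells, Cd79b was seen in 82, 56, 65 and 69 but Cd79a in only 8, 8, 12 and 12, and Ms4a1 in 5, 4, 11 and 3. The ratio of Cd79a to Cd79b UMIs was 1.61, 1.47, 1.39 and 1.60 in dense cells and 0.0757, 0.152, 0.286 and 0.138 in sparse cells. Kept cells with at least 5 UMIs of Mpo, a myeloid granule enzyme, had ratios of 0.156, 0.258, 0.223 and 0.196, with at least 2 Cd79b UMIs in 11.5% to 15.2% of them and an H2-Aa UMI in 18.9% to 26.1%. Barcodes with at most 50 UMIs, taken as free RNA, had ratios of 0.682, 0.723, 0.5 and 0.680.

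Genes that the rule did not use differed between the sets too. Cd74, the invariant chain that escorts class II molecules, had a median of 55.5, 54, 52 and 52 UMIs per dense cell and 1, 1, 1 and 0 per sparse cell. Elane plus Mpo, granule proteins of early myeloid cells, had medians of 3, 3, 2 and 2 UMIs in dense cells and 21, 241, 29.5 and 72 in sparse cells. These medians are not scaled to depth, and sparse cells hold far more UMIs per cell. In the summed cells, Elane made up 817, 762, 569 and 1217 of every 1000000 UMIs in dense cells. In sparse cells it made up 7935, 10074, 7149 and 9408. The B-lineage factors Ebf1 and Pax5 stood at 1.6 to 9.7 CPM (UMIs of the gene per 1000000 UMIs of the summed cells) and at 1 UMI in all in the sparse cells. The sparse cells therefore keep no cell type name here. They supplied 89.9%, 85.4%, 88.0% and 91.0% of all UMIs of the members, so that any sum over the 582 cells is mostly a sum over sparse cells.

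Dense cells were also counted at the edges of the rule. Of the 208 members with exactly 2 Cd79 UMIs, 3 were dense, and of the 789 cells left out with exactly 1, none was. Density is Cd79 UMIs over cell size, so a cell with 1 or 2 can be dense only if it is small. Library medians were 13409 to 18799.5 UMIs with exactly 2 and 10204.5 to 12705.5 with exactly 1. The counts at this edge thus follow largely from the definition and are no check of the split. Of 183 members with a single UMI of Ms4a1 or H2-Aa, 1 was dense, and of 881 cells left out for having none, 2 were. The limit on precursor genes cut through dense cells instead: 91 of 115 members with 1 UMI of Vpreb1, Igll1 or Vpreb3 were dense, as were 52 of 57 cells left out with 2.

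Over all barcodes, the libraries held 56353466, 40364701, 47025425 and 53387528 UMIs. The median per member differed more, at 6822, 2073, 3130.5 and 6942 UMIs, while that per dense cell was 1713, 1723, 1645 and 1604. Idh1-WT 1 and Idh1-R132H 1 shared 345 barcodes among their kept cells, where the other pairs of libraries shared 13 to 33. No barcode was a member in more than 1 library, but 1, 2, 2 and 1 dense and 2, 1, 17 and 1 sparse members had a barcode also kept in another library, and results that rest on them are given with and without these cells. A sum over cells does not by itself tell fewer cells from less RNA per cell. The number of cells and the median UMIs per cell are therefore given for each library.

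The class II pathway is what a mature B cell uses to show peptides to T cells, and its genes were high throughout the dense cells. The promoters of 3 of its chains are shown because they carry the same 8 letters, CTGATTGG (capitals), which contain ATTGG, the reverse complement of CCAAT. Each run is the 150 bases just before the start site on GRCm38.p6, taken from RefSeq, and the letters were chosen after the promoters had been read.
H2-Aa, chr17:34287824-34287973, minus strand: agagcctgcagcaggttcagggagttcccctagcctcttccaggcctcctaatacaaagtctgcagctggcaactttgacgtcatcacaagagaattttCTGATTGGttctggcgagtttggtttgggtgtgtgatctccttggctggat
H2-Eb1, chr17:34305717-34305866, plus strand: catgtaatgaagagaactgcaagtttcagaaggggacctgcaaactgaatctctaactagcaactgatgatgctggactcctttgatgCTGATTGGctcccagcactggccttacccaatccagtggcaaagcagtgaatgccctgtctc
H2-Oa, chr17:34092229-34092378, plus strand: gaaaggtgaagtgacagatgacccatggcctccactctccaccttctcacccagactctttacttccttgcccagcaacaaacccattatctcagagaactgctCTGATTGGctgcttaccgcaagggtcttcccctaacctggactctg
The match lies 51 to 44 bases before the start in H2-Aa, 62 to 55 in H2-Eb1 and 46 to 39 in H2-Oa. On either strand of the 250 bases before the start, CTGATTGG occurs in 1258 of 32851 RefSeq promoters (3.83%) and in 2 of the 9 class II list genes that have a promoter there, H2-Eb1 and H2-Oa. The 5 letters ATTGG occur in 11120 promoters (33.8%) and in 7 of the 9. A match is a description of the sequence and says nothing of binding.

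In the dense cells, Cd74 stood at 25992, 29851, 25758 and 25748 CPM, the unit of every level below unless another is named. The presenting chains H2-Aa, H2-Ab1 and H2-Eb1 had means of 5768 ± 434, 5232 ± 634 and 3645 ± 211 (SD, n = 4 libraries). H2-DMa and H2-DMb2, which load peptides onto class II molecules, stood at 696 ± 28.3 and 990 ± 45.5, and H2-Oa and H2-Ob, which restrain that loading, at 367 ± 30.3 and 502 ± 39.9. For each of these genes the SD over libraries was small beside the mean, and no library stood apart. Ciita, the master regulator of class II transcription, was at 34.7, 39.2, 25.9 and 58.0, and Ctss, the protease that trims the invariant chain, at 799, 729, 640 and 563. Class I was carried as well, with B2m at 4156 ± 180, H2-D1 at 2360 ± 112 and H2-K1 at 1310 ± 96.2.

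Genes of the receptor were present in every library. Cd79a had a mean of 3371 ± 185, Cd79b of 2233 ± 262 and Ms4a1 of 1077 ± 85.0 in the dense cells. Cd22, an inhibitory lectin of the receptor complex, stood at 174, 185, 77.6 and 124. Both Idh1-R132H libraries were below both Idh1-WT libraries for Cd22, and above them for Cd72, another inhibitory co-receptor, at 168, 151, 207 and 265. Such a gap is common: of all 2044 genes tested in dense cells, 18.3% were lower and 15.1% higher in both mutant libraries. Signalling adaptors lay below Cd79a, Cd79b and Ms4a1 and were even, with Bank1 at 308 ± 13.4 and Blnk at 150 ± 19.8.

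The transcription factors that set B cell identity were led by Ebf1 at 1181, 1289, 1267 and 1234. Pax5, which holds cells in the B lineage, stood at 92.7, 101, 136 and 91.1, and Klf2, which keeps resting lymphocytes quiescent and recirculating, at 967, 1295, 1009 and 886. Mef2c was at 490 ± 43.3, Irf8 at 252 ± 30.4, Pou2f2 at 236 ± 52.7 and Spib at 128 ± 24.5. Irf4, which rises on activation, had 10 UMIs in the 307 cells, and Prdm1, the driver of plasma cell fate, had none, where 3 counts would be 17.4, 16.8, 19.4 and 24.8 CPM.

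Genes of the follicular, recirculating stage were detected in all 4 libraries. Fcmr, the receptor for IgM, stood at 759, 785, 834 and 944, Fcer2a (CD23) at 237, 235, 207 and 224, and Cr2 (CD21) at 81.1, 89.7, 51.7 and 74.5. The 4 values lay close together for Fcer2a and further apart for Cr2, which rested on 8 to 16 UMIs per library. Ccr7, which guides cells to the T zone, was at 57.9, 123, 123 and 166. Cxcr5, which guides them to follicles, stood at 104, 56.1, 123 and 58.0, and S1pr1, the exit receptor, at 74.3 ± 21.5. Tnfrsf13c, the receptor for the survival factor BAFF, was at 319, 269, 265 and 398, and Bcl2, a survival protein, at 112 ± 18.9.

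Genes of earlier stages were mixed. Cd24a, which falls as B cells mature, stood at 377 ± 70.7 and was seen in 30.8% to 45% of dense cells, and Ctsh and Ms4a4c, on the same list of immature and transitional genes, in 38.5% to 61.7% and 20% to 44.0%. Rag1 and Rag2, which cut the antibody genes, Il7r, the pro-B cytokine receptor, and Cd5, a mark of B-1 cells, had no UMI in any dense cell. Cd93, a mark of immature cells, had 8 UMIs in all, Dntt 3, and the cycling genes Mki67 and Top2a 11 and 22. At this depth, with a median of 1604 to 1723 UMIs per cell, a gene without UMIs may still be transcribed at a low level.

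To set detection apart from depth, each cell was thinned to 1000 UMIs, which left out 1, 2, 0 and 0 dense cells, 0, 3, 1 and 0 Cd79-dense B precursor-like cells (defined below by Vpreb genes) and 211, 8, 7 and 20 cells with at least 5 Mpo UMIs. Fcmr was then seen in 53.3%, 57.3%, 55.1% and 45.0% of dense cells (73.1%, 70.3%, 73.1% and 70.0% before thinning), in 26.1% to 28.6% of the precursor-like cells, and in 0.101% to 0.239% of the Mpo cells. Fcer2a was seen in 27.3%, 19.1%, 17.95% and 21.7% of dense cells (37.2%, 30.8%, 32.1% and 35% before), in 6.52% to 15.9% of the precursor-like cells and in at most 0.0598% of the Mpo cells. Ebf1 was seen in 68.8%, 71.9%, 65.4% and 73.3% of dense cells (87.2%, 85.7%, 89.7% and 88.3% before), in 69.6% to 85.2% of the precursor-like cells and in 0.419% to 0.625% of the Mpo cells. Cd74 was in every dense cell at that depth, in 61.4% to 71.4% of the precursor-like cells and in 3.65% to 5.4% of the Mpo cells (30.1% to 43.6% before thinning). Early myeloid cells with Mpo should lack Fcmr, Fcer2a and Ebf1, so their shares were set beside these 3 genes. These shares are not the full background of the dense cells. Free RNA was put at 162, 152, 161 and 150 UMIs per dense cell, and thinning larger cells would dilute a like amount further. Cd74 is also made by myeloid cells, so its share there is no background either.

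**Figure D2:**
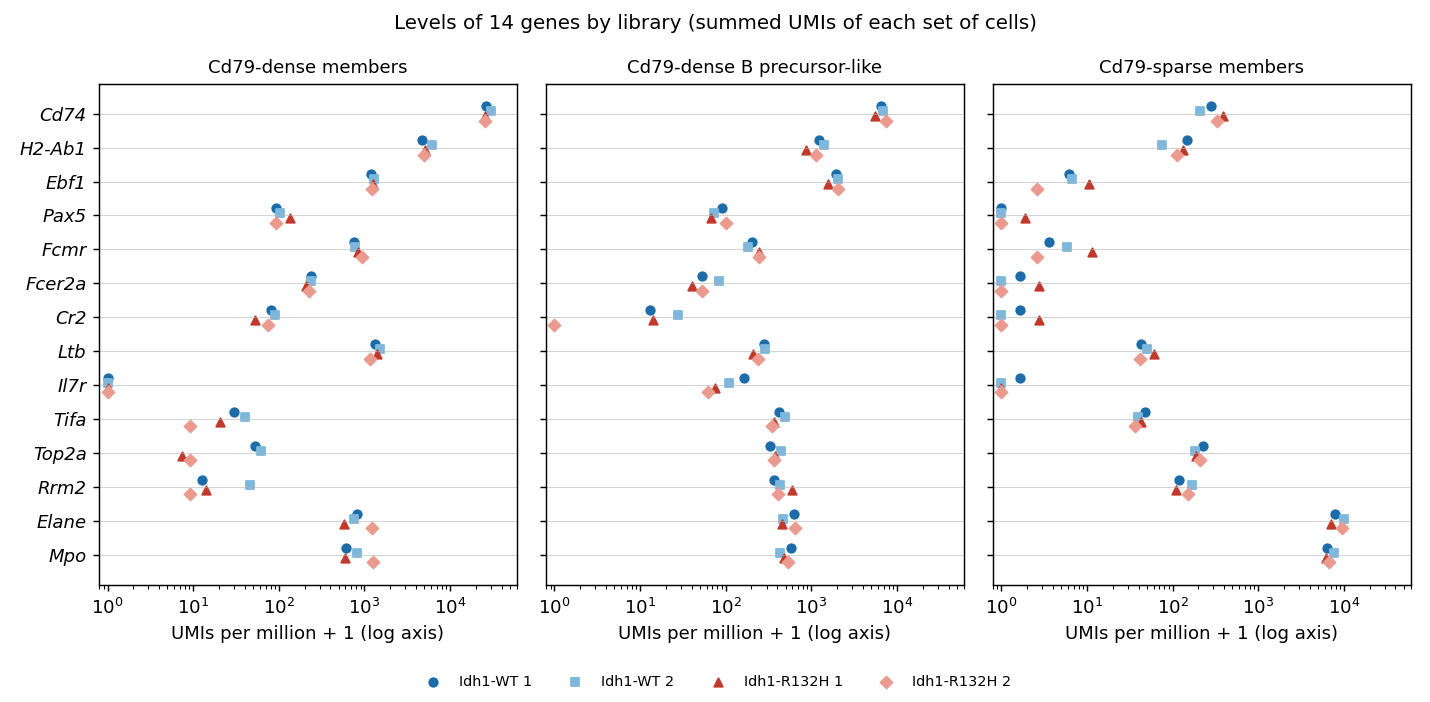
Levels of 14 genes as CPM plus 1 (log axis) in the summed UMIs of Cd79-dense members, Cd79-dense B precursor-like cells and Cd79-sparse members, 1 point per library. Cd74 lies between 25748 and 29851 in the dense members and between 209 and 382 in the sparse ones, while Elane and Mpo lie at or above 6190 in the sparse members and at or below 1267 in the dense.

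Apart from the plasmacytoid dendritic list, markers of other cell types summed to less in the dense cells than in all other kept cells. Of 15 neutrophil markers, 12 to 15 were detected per library, with summed levels of 5409, 4653, 8146 and 7081 against 43272 to 51631 in all other kept cells and 39002 to 47498 in free RNA. T and NK cell markers summed to 292 to 480 against 802 to 864 in all other kept cells, with Cd3d, Cd4, Cd8a and Cd8b1 at 0 in every library. Conventional dendritic cell markers summed to 414 to 718 against 909 to 941, with Xcr1, Clec9a, Batf3, Zbtb46 and Itgax at 0. Erythroid markers summed to 323 to 628 against 747 to 1032. Plasmacytoid dendritic cell markers summed to 2699 to 3274, against 113 to 146 in all other kept cells and 153 to 183 in free RNA. Ly6d, a gene of B cells too, made up 2259 to 2898 of the level in dense cells, and Ccr9, Klk1, Klk1b27 and Cd300c were at 0. It was not the only marker read: 4 to 7 of the 11 were detected per library, Rnase6 and Tcf4 in each. Against the precursor cells described below, Rnase6, Tcf4 and Ly6d were called higher in dense members and Atp1b1 lower.

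A few members made Jchain, the chain that joins secreted antibodies. Only 3 members held 100 or more Jchain UMIs, and no library had more than 1. The cell of Idh1-WT 1 was dense, with 1276 Jchain UMIs among 9187, and carried 41 UMIs of Mzb1, 7 of Xbp1, 5 of Sdc1 and 10 of Tnfrsf17, all genes of antibody secretion or of plasma cells. The cells of Idh1-R132H 1 and 2 were sparse by their size, with 673 of 31819 and 1430 of 21167 UMIs; they held 146 and 41 UMIs of Mzb1 and 33 and 31 of Xbp1. Prdm1 had no UMI in any of them. Apart from them, Jchain had 3, 0, 1 and 3 UMIs among dense cells, so the mean level of Jchain in Idh1-WT 1, at 7407, was set by 1 cell.

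Under the rule as given, the share of members did not differ between genotypes beyond the spread. Members made up 3.55% (95% exact binomial interval 3.03% to 4.14%), 4.22% (3.58% to 4.94%), 3.75% (3.17% to 4.40%) and 2.93% (2.46% to 3.47%) of kept cells; these intervals cover counting error only. The means were 3.89% ± 0.473 in Idh1-WT and 3.34% ± 0.575 in Idh1-R132H (SD, n = 2), a difference of -0.547 percentage points with p = 0.667 in a two-sided exact permutation test, whose smallest possible p here is 0.333. The dense cells alone were 2.16% ± 0.611 and 1.69% ± 0.478 of kept cells, a difference of -0.472 with p = 0.667 in the same exact test. Without the members whose barcode was kept in another library, the differences were -0.740 (exact p = 0.333) and -0.470. The groups overlapped in the shares of all kept members and of dense cells but not in the shares of members without shared barcodes, and the sort fixes how many cells of each gate enter a tube, so these are shares of the sorted mix.

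**Figure D3:**
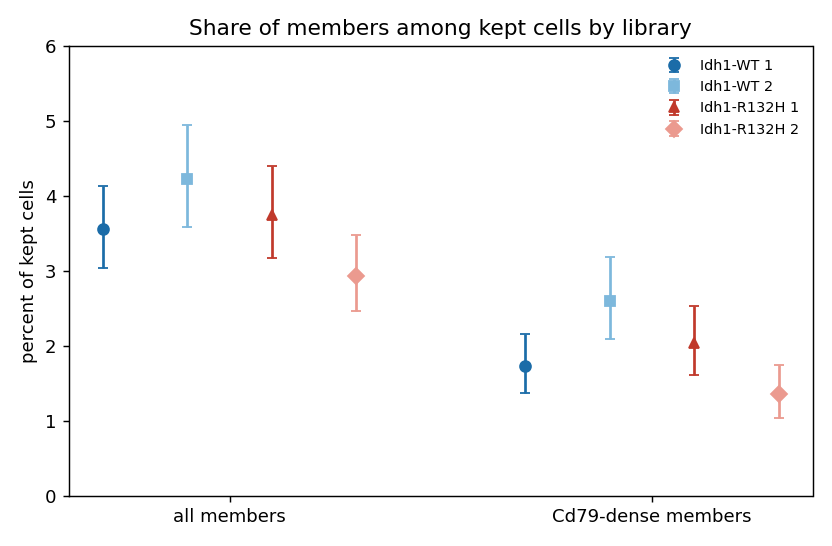
Share of all members and of Cd79-dense members among kept cells, in percent, 1 point per library with its 95% exact binomial interval. Idh1-R132H 2 is the lowest in both sets, at 2.93% and 1.35%, and Idh1-WT 2 the highest, at 4.22% and 2.60%.

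The stage of the dense members was described beside the nearest cells of the series. B precursor-like cells held at least 2 UMIs of Vpreb1, Igll1 and Vpreb3 together, at least 1 of Cd79a plus Cd79b and none of Cd3e or Siglech; 310 were found, and 257 of them were Cd79-dense (56, 91, 47 and 63). With the library as a term, 636 of 3221 genes were called higher in the mature cells (19.7%) and 653 lower (20.3%) by edgeR's quasi-likelihood test at a Benjamini-Hochberg FDR of 0.05. When scaled by library totals instead of TMM, the split was 440 higher and 939 lower, with the median of all genes moved by -0.205 on the log2 scale. Both sets were cut on genes measured in the same cells, so the counts describe the sets and nothing is read from them. The same holds for the lists below. Only the member rule asks for Ms4a1 or H2-Aa, and only the precursor rule asks for Vpreb1, Igll1 or Vpreb3. H2-Aa was seen in 78, 88, 75 and 59 dense members and in 36, 61, 28 and 40 dense precursors. How far these rules set apart genes that vary with theirs, class II and pre-B genes among them, was not tested.

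In the class II list, 10 of 11 genes tested were called higher and none lower, with a median log2 difference of 2.18 against 0.00915 over all genes. Cd74 was at 26840 ± 2012 in mature and 6529 ± 783 in precursor cells (SD, n = 4), a log2 difference of 2.26 with SE 0.05. H2-Eb1 differed by 2.65, at 3645 ± 211 against 677 ± 93.7, and H2-DMb2, H2-Oa and H2-Ob by 2.31, 2.18 and 2.41. Of 14 class I genes, 11 were called higher, with a median of 0.85.

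All 18 tested genes of the mature recirculating list were called higher, with a median of 2.15. Fcmr stood at 830 ± 82.0 against 217 ± 30.9, Fcer2a at 226 ± 14 against 56.8 ± 18.6 and Cr2 at 74.3 ± 16.3 against 13 ± 11. The largest differences by the naming rule were in Apoe, a lipid carrier (3.23, SE 0.17; 579 ± 98.6 against 70.9 ± 15), Ms4a4c (2.80; 254 ± 72.9 against 40.5 ± 22), H2-Eb1 (2.65, above), Ltb, which organises lymphoid tissue (2.64; 1360 ± 151 against 252 ± 37.5), and Cd55, a complement inhibitor (2.60; 208 ± 20.9 against 38.8 ± 9.74). Gimap3, Gimap4, Gm8369, Shisa5 and Stap1 followed, at 2.44 to 2.58. Of 11 homing genes, 7 were called higher and Rgs2 lower, Cxcr5 (2.27) among the former.

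Lower in the mature cells were genes of division and of the pre-B stage. All 24 tested genes of S, G2 and M phase were called lower, with a median of -2.65, among them Top2a (-3.22) and Mki67 (-2.81). Rrm2, a subunit of ribonucleotide reductase, was at 19.4 ± 17.1 against 447 ± 95.9, 2810417H13Rik at 32.0 ± 17.3 against 980 ± 120 and Myl4 at 23.6 ± 22.4 against 605 ± 43.0. Il7r had 0 UMIs against 113 and was at least 21.5-fold lower, with the floor of 3 counts taken over the group. Rsph9, Rsph1, Neil3, Hist1h2ae and Atp1b1 had 1, 1, 2, 3 and 3 UMIs against 108, 107, 93, 134 and 190. In the immature list 7 of 10 genes were called lower, including Cd24a (377 ± 70.7 against 1912 ± 244), Sox4, Lef1 and Tifa, while Ctsh and Ms4a4c were called higher.

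Among the B transcription factors, 11 of 21 were called higher and 5 lower. Klf2 differed by 1.38, while Ebf1 (-0.40), Tcf3, Ikzf1, Spib and Bach2 (-1.28) were lower; Pax5, at 0.58 with an adjusted p of 0.054, was not called. In the receptor list 12 of 22 were called higher, Cd22 among them (1.65), and Cd72 (-0.90) and Blnk lower. Of 13 survival genes, 7 were called higher and none lower, with Tnfrsf13c at 0.88 and Bcl2 at 1.90. Nuclear genes of the respiratory chain were called lower in 18 of 30, with a median of -0.486, while 9 of 12 mitochondrially encoded genes were called higher, with a median of 0.391. Idh2, the mitochondrial relative of Idh1, was at 60.4 ± 21.9 against 108 ± 17.7 (-0.67, adjusted p = 0.044).

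Neutrophil granule genes differed as well. Retnlg, Elane, Mpo, Prtn3 and Ctsg, 5 of the 11 neutrophil markers tested, were called higher in the mature cells, with Elane at 841 ± 272 against 548 ± 101. Their part in the other differences was not tested.

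**Figure D4:**
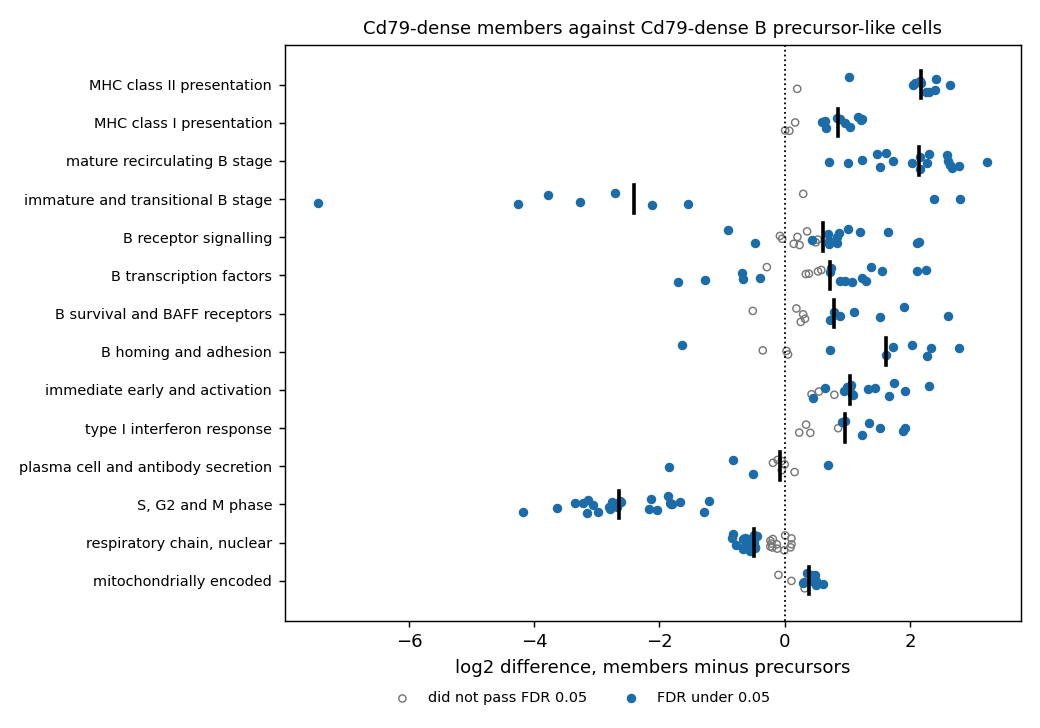
Log2 difference of Cd79-dense members minus Cd79-dense B precursor-like cells for the genes of 14 lists, 1 point per gene, filled where the FDR was under 0.05, with a bar at each list's median. Medians of the class II and mature recirculating lists lie at 2.18 and 2.15, and those of the immature and the S, G2 and M phase lists at -2.41 and -2.65.

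Within the dense cells, no gene differed between Idh1-R132H and Idh1-WT by the test. Of 2044 genes, 0 were called by edgeR's quasi-likelihood test at a Benjamini-Hochberg FDR of 0.05 (0%), 97 had an unadjusted p under 0.05, and DESeq2 called 0 with 5 such genes. The same edgeR fit on simulated counts recovered 86.1% of genes changed by 2 on the log2 scale, 37.1% of those changed by 1 and 11.8% of those changed by 0.5. These counts came from a single draw with the same fixed dispersion for every gene, not estimated from these cells. In that setting most differences of 1 or less were missed, and the share missed in the real counts may differ. With the dividing line at 5 in place of 10, edgeR called 29 genes, and 6 of 2257 genes when the Jchain-rich members were also left out.

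Class II levels lay close together in the 4 libraries. Cd74 differed by -0.10 (SE 0.07) on the log2 scale and H2-Ab1 by -0.07 (SE 0.11), and of 11 class II genes 5 were higher and 6 lower, with a median of -0.0127 against 0.00745 over all genes. Ebf1 differed by 0.04 (SE 0.12) and Pax5 by 0.28 (SE 0.36). The mature recirculating genes, 6 higher and 11 lower of 17, had a median of -0.0983, with Fcer2a at -0.12 (SE 0.23) and Cr2 at -0.44 (SE 0.42).

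The other lists had no called gene either, beside 1043 higher and 1001 lower among all 2044 genes. Plasma cell genes were lower in 7 of 7 (median -0.181), with the only Jchain-rich dense cell in Idh1-WT 1; without it 3 were higher and 4 lower (median -0.0244), and over all members the median was 0.201. BAFF and survival genes were higher in 7 of 8 (0.179), homing genes higher in 6 of 9 (0.253), interferon genes higher in 7 of 10 (0.277) and cell cycle genes lower in 5 of 7 (-0.312). Neutrophil markers were higher in 9 of 10 (0.323), S100a8 at 1031, 796, 2677 and 1027. Markers of stem and progenitor cells summed to 237, 224, 394 and 447, higher in both mutant libraries, and 0 of these 12 genes had enough counts to be tested. They were also higher in both mutant libraries in all other kept cells (1075, 1093, 1199 and 1170) and in free RNA (1178, 1214, 1290 and 1363). The part of neutrophil or of stem and progenitor markers in these medians was not tested.

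None of the list genes passed the threshold, and groups without overlap, seen in each gene named next, were common among all genes (18.3% lower and 15.1% higher). Tnfrsf13b (TACI), the second receptor for BAFF, stood at 232, 179, 90.5 and 116, both mutant libraries below both wild-type ones, a log2 difference of -0.99 (SE 0.30) with an adjusted p of 0.808. Cd22 differed by -0.84 (SE 0.32) and Cd72 by 0.56 (SE 0.25). S1pr4, a sphingosine phosphate receptor, was at 86.9, 107, 246 and 141 (1.05, SE 0.33), and Tsc22d3, a glucocorticoid target, at 162, 185, 265 and 282 (0.67, SE 0.23). Cenpa, a centromere histone, was at 104, 84.1, 32.3 and 16.6 (-1.84, SE 0.54), which is 18, 15, 5 and 2 UMIs. Among the interferon genes, Ifi27l2a stood at 284, 499, 614 and 522 (0.56, SE 0.22).

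**Figure D5:**
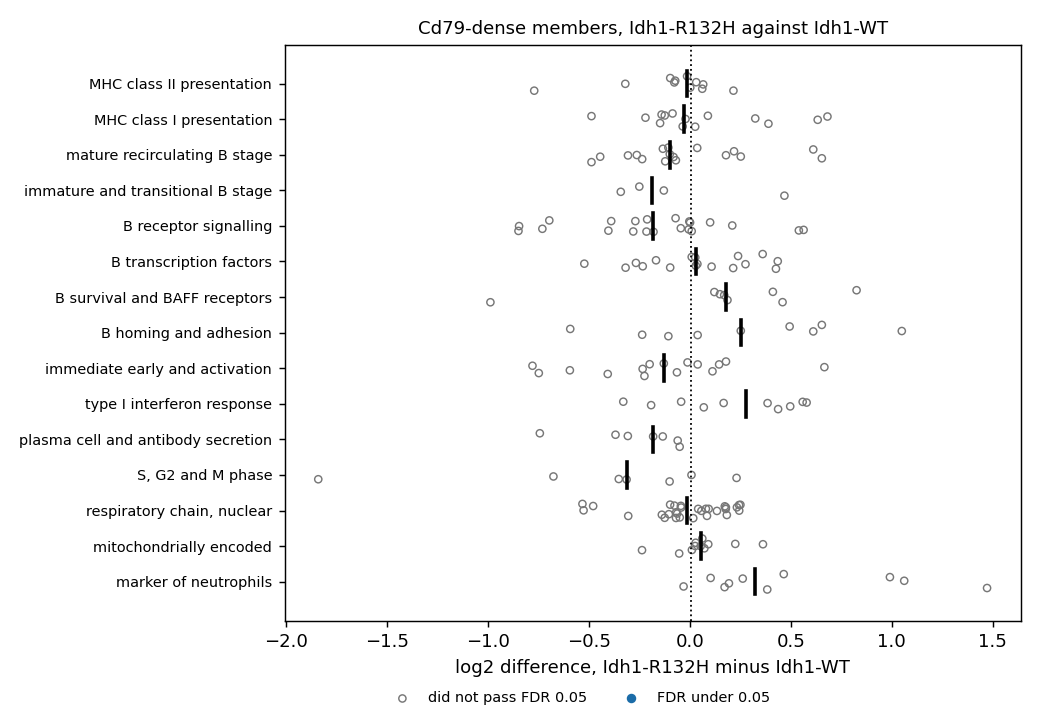
Log2 difference of Idh1-R132H minus Idh1-WT in the Cd79-dense members for the genes of 15 lists, 1 open point per gene since none passed an FDR of 0.05, with a bar at each list's median. Medians lie between -0.312 (S, G2 and M phase) and 0.323 (neutrophil markers), and that of the class II list at -0.0127.

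Idh1 itself was seldom read in the dense cells, with 2, 1, 4 and 1 UMIs, too few to be tested. Idh2 differed by -0.02 (SE 0.54), at 75.3, 44.8, 38.8 and 82.8. Over all 582 members, Idh1 stood at 51.5, 62.2, 69.0 and 53.5 (0.15, SE 0.19). Gt(ROSA)26Sor, the transcript of the Rosa26 locus, had 19, 10, 32 and 28 UMIs there, both mutant libraries above both wild-type ones, as for 14.6% of the 7609 genes tested, with 20.1% the other way; the log2 difference was 1.23 (SE 0.32) with an adjusted p of 0.566.

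Over all 582 members, 2 of 7609 genes were called by edgeR (0.0263%), both higher in Idh1-R132H, with 358 at an unadjusted p under 0.05. Ltf (chr9:111019271-111042767, plus strand), the lactoferrin of neutrophil granules, had 52, 43, 161 and 125 UMIs, or 30.5, 35.2, 125 and 92.8 CPM (1.77, SE 0.19, adjusted p = 0.00037). Ly6k (chr15:74796874-74799986, minus strand), a GPI-anchored protein, had 36, 20, 71 and 82 UMIs, or 21.1, 16.4, 55.0 and 60.9 CPM (1.64, SE 0.22, adjusted p = 0.0049).

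Single cells held much of the UMIs behind both calls. The Jchain-rich cells of Idh1-R132H 1 and 2 held 66 and 76 of the Ly6k UMIs, 93.0% and 92.7% of the library's, and that of Idh1-WT 1 held 26 (72.2%). For Ltf, 1 cell of Idh1-R132H 1 with 83 UMIs held 51.6%, and it also had 816 UMIs of Camp, 1099 of Ngp and 2665 of S100a8, all neutrophil genes. In Idh1-R132H 2 the Ltf-richest cell, with 55 UMIs (44.0%), was the Jchain-rich cell, which held 596 UMIs of Camp besides. The richest cells of the Idh1-WT libraries held 3 and 4 Ltf UMIs. Without the 3 Jchain-rich cells, 0 of 7513 genes were called, with 327 at an unadjusted p under 0.05, and Ltf differed by 1.47 (SE 0.522, adjusted p = 0.989).

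The direction of Ly6k turned with the set of cells. It differed by -2.40 in the dense cells (168, 72.9, 25.9 and 16.6 CPM) and by 3.53 in the sparse cells (4.56, 6.71, 59.0 and 65.3). The Jchain-rich cell of Idh1-WT 1 lay in the dense set, and those of the mutant libraries lay in the sparse set. Without the members whose barcode was kept in another library, among them the Jchain-rich cell of Idh1-R132H 1, no gene was called over all members.

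In the sparse cells, edgeR called 14 of 7206 genes (0.194%), 12 higher and 2 lower in Idh1-R132H. Besides Ly6k and Ltf (1.89), the higher ones included Cd52 (0.73), Ly6a, which encodes Sca-1 (1.15), the interferon-induced Ifitm3 (0.53), Ifitm6 (2.42) and Ifi27l2a (1.30), S100a6 (0.96), Ctss (1.06), Malat1 (0.30) and the Y-linked Eif2s3y (1.67). Slamf7 had 1, 0, 13 and 11 UMIs, of which the Jchain-rich cells of the mutant libraries held 11 and 9. The sex-linked genes named next did not overlap between genotypes. Such a gap was common: of all 7206 genes tested in sparse cells, 14.6% were higher and 20.5% lower in both mutant libraries. In dense cells 15.1% were higher and 18.3% lower. UMIs of Y-linked genes and of Xist were both read in every library. Eif2s3y stood at 9.12, 14.4, 29.1 and 40.8 in the sparse cells, Ddx3y, also Y-linked, at 1.96, 6.71, 10.6 and 9.79 (1.40, SE 0.57, not called), and Xist, made from the inactive X, at 626, 712, 485 and 530 in the dense cells (-0.38, SE 0.17, not called). Their part in the other differences was not tested. Rpl39l, a ribosomal protein paralog, had 32, 14, 0 and 2 UMIs and Dmkn differed by -1.46. When the Jchain-rich cells were left out, 1 of 7057 genes was called, and it was lower in Idh1-R132H. Neutrophil markers in the sparse cells summed to 23762, 28187, 33646 and 29836 CPM, with Camp at 188, 154, 1180 and 709, and their part in these calls was not tested.

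Whether the genotype difference of a gene depended on stage was tested with a genotype by class term. Over all members and precursors, 0 of 7352 genes were called (0%), with 178 at an unadjusted p under 0.05 and 1 called by DESeq2. In the dense cells of both classes, 5 of 3221 genes were called (0.155%): Ctla2a, Ltf and Anxa1, whose differences were higher in the mature cells, and Ube2c and Nusap1, genes of mitosis, whose differences were lower. They rest on few counts. Ube2c had 31, 10, 3 and 2 UMIs in mature cells against 248, 286, 149 and 234 in precursors, and 71.0% of the 31 came from 1 cell.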

How the data were processed

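The values are raw UMI counts per gene and barcode, deposited by the authors for all barcodes, empty droplets included; Cell Ranger 4.0.0, Seurat and the build GRCm38/mm10 are named per the submitters' processing notes. Of 27998 features, 27645 (98.7%) matched GENCODE vM21. The members, gene lists and tests were chosen with earlier results of these data known. Counts were summed per library and set of cells, since cells are not replicates, and tested across the 4 libraries with edgeR 4.0.16 (quasi-likelihood, robust, filterByExpr, TMM, R 4.3.3, limma 3.58.1), with p-values adjusted over all genes tested by Benjamini-Hochberg and calls at an FDR of 0.05; an adjusted p is edgeR's unless another tool is named. The SE of a log2 difference was worked out from edgeR's test, as the size of the difference over the square root of the F statistic. DESeq2 1.42.0 was an alternative. Cells were handled with Python 3.11.15, numpy 2.4.6, scipy 1.17.1, pandas 2.3.3 and scanpy 1.11.5. Shares were compared with the exact permutation test.

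Scrublet in scanpy called 117 doublets (0.719%), which were kept; leaving out the members in the top 5% of scores was an alternative. The split at 10 Cd79 UMIs per 10000, its alternatives at 5 and 20, and the leaving out of members with 100 or more Jchain UMIs were chosen after the data were seen, as were all results on Cd79-dense and Cd79-sparse cells. Barcodes holding at most 50 UMIs stood for free RNA; its amount per cell was set from S100a8 and S100a9 in the dense cells, not in all members as first planned, since sparse cells hold these genes themselves. The fits were tested on simulated data with known changes.

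Named were, by rule, up to 10 called genes in each direction whose mean log2 CPM reached 5 (6 for mature against precursor cells); of each list in the genotype comparison, the called members or else up to 2 of the smallest p; and fixed genes (Idh1, Idh2, Gt(ROSA)26Sor, Pax5, Ebf1, Cd74, H2-Ab1, Fcer2a, Cr2, Cd93, Tnfrsf13c, Cxcr5 and Jchain; others of them are not reported here). Other genes named with a difference between groups, the genes called in sparse cells among them, were chosen after their values were seen. Of the genes in the 27 lists, 4 were not among the features.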

Additional observations from a re-analysis of the deposited data

Results flagged for a closer look

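For 5 genes the difference between genotypes itself differed between Cd79-dense mature and Cd79-dense precursor cells, by the genotype by class term of edgeR with Benjamini-Hochberg adjustment over 3221 genes. A positive value means that Idh1-R132H minus Idh1-WT was higher in the mature cells. UMIs are given for Idh1-WT 1, Idh1-WT 2, Idh1-R132H 1 and Idh1-R132H 2.

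Ctla2a, a cysteine protease inhibitor, differed by 2.98 (SE 0.62, adjusted p = 0.0081), with 7, 10, 30 and 6 UMIs in mature and 10, 49, 2 and 11 in precursor cells; without Idh1-R132H 1 the value was 0.96 (adjusted p = 0.953) and without Idh1-WT 2 it was 2.13 (adjusted p = 1.00). Ube2c, which tags mitotic proteins for destruction, differed by -2.44 (SE 0.54, adjusted p = 0.0122) and Nusap1, a spindle protein, by -6.50 (SE 1.50, adjusted p = 0.0164). Nusap1 had 8, 6, 0 and 0 UMIs in mature and 81, 97, 76 and 88 in precursor cells, 1 cell held 87.5% and 83.3% of the mature Idh1-WT UMIs, and the fitted value depends on the prior count. Of the 4 fits that left out a library, only that without Idh1-WT 2 called Ube2c and Nusap1.

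Ltf differed by 3.02 (SE 0.69, adjusted p = 0.0122), with 5, 9, 5 and 14 UMIs in mature and 56, 15, 4 and 9 in precursor cells, and 1 cell held 98.2% of the 56. Anxa1, a protein of myeloid cells, differed by 2.83 (SE 0.66, adjusted p = 0.0158), with 4, 6, 7 and 15 UMIs in mature and 42, 23, 11 and 10 in precursor cells, and 1 cell held 73.8% of the 42. Both passed without Idh1-R132H 1 and without Idh1-WT 2, and in neither of the other 2 such fits. Groups of 2 libraries are too small to look for a library that stands apart.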

How the results depend on the processing

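The calls between genotypes over all members were unstable. Against 2 called genes, the count was 8 with at least 3 Cd79 UMIs, 7 with no UMI of Vpreb1, Igll1 or Vpreb3, 1 at equal cell numbers, 24 with no filter beyond 1 count, 4 with DESeq2 and 14 in sparse cells alone (1 without the Jchain-rich cells). It was 0 in dense cells alone, without members holding other lineages' UMIs, without the top 5% of doublet scores, without shared barcodes and without the Jchain-rich cells. Leaving out a library gave 24 to 41. In dense cells, against 0, edgeR called 29 at a density of 5 (6 without the Jchain-rich cells), 4 with no filter beyond 1 count, and 0 to 7 when a library was left out (3 without Idh1-WT 1, 7 without Idh1-WT 2). With the replicate block the counts were 11 (all members) and 6 (dense). Same-numbered libraries share only a number, and their deviations correlated by -0.043 and 0.003.

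Mature against precursor cells gave 790 calls over all cells (295 with DESeq2, 238 thinned, 1289 in dense cells, 386 to 913 without a library) and 1289 in dense cells (663 with DESeq2, 362 thinned). The genotype by class term gave 0 over all cells (1 with DESeq2, 7 without shared barcodes, 1 to 26 without a library) and 5 in dense cells (9 without shared barcodes, 3 to 9 without a library).

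Direction turned for the share of members when those with other lineages' UMIs were left out (0.0399 percentage points, on 12 to 18 cells per library) and with members plus precursors as denominator (2.96, and 1.49 in dense cells). It turned for Ly6k in dense cells (-2.40) and for Xbp1 at a density of 5 (1.42, against -0.37). The Jchain-rich cell of Idh1-WT 1 was dense, with 26 Ly6k UMIs, while those of Idh1-R132H 1 and 2 were sparse, with 66 and 76. These mutant cells had Cd79 densities of 9.743 and 7.087, so they pass a line of 5 but not the main line. They held 33 and 31 Xbp1 UMIs. Between mature and precursor cells, Jchain differed by -0.85 when thinned, against a fitted 1.0e-05 that is too small to give a direction. Leaving out a library moved the share of members between -0.953 and -0.140 and that of dense cells between -0.904 and -0.0399. The cause of these changes was not tested. Depth (a median of 1604 to 1723 UMIs per dense cell), 2 libraries per group and single cells rich in a gene limit these values, and the limits were not ranked.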
